A study of Rattus norvegicus with 19 samples.

Results

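Rat spinal cord cultures given polyphosphate were compared with rat spinal cord cultures given the medium of astrocytes that carry wild-type human SOD1. Members were all genes of the 9 libraries of these 2 groups (5 polyP and 4 wtSOD1-ACM, of 19 libraries in the series) with 4 or more of the 19 libraries at 1 FPKM or higher, a filter that left 11887 of the 15597 genes in the table. FPKM are fragment counts scaled to transcript length and to library size. The cultures were primary cells of the ventral spinal cord of wild-type Sprague-Dawley rat embryos of embryonic day 14, kept in a medium with horse serum and chick leg extract, and all groups shared these conditions. The polyP group received long-chain synthetic polyphosphate (polyPL) at 100 μM for 90 min. The wtSOD1-ACM group received, for 90 min, astrocyte conditioned medium (ACM) from spinal cord astrocytes of newborn mice with the human wild-type SOD1 transgene, collected after 7 days on those cells. The control group (5 libraries) was untreated. A group given the medium of SOD1 G93A mouse astrocytes (mutSOD1-ACM, 5 libraries) is not compared here by a test. Its libraries entered the filter on low values, the clustering of libraries and the statistical fit, where they helped to estimate the spread. The labels do not name the promoter of the transgene or say how many mice gave the astrocytes, and they give the age of the treated cultures as both 4 and 7 days in vitro. No library given unconditioned medium was analysed here, so the part of changing the medium was not tested. The mutSOD1-ACM cultures also received astrocyte medium for 90 min. They read 2.37 to 7.32 FPKM of Ccl2 (control 2.58 to 8.10) and 1.75 to 3.55 of Cxcl1 (control 2.16 to 3.26). For Gal they read 3.23 to 9.15 FPKM (control 3.04 to 4.69). The labels count 4 to 5 separate cultures behind each condition, and p-values here measure the spread between those libraries. The tests treat the libraries as independent. In the wtSOD1-ACM group, however, libraries 1 and 2 were alike, as were 3 and 4. Gbp5, for example, read 14.7 and 14.7 FPKM in the first pair and 5.01 and 4.64 in the second. Correlations within that group ran from 0.97 to 0.997. Whether libraries so alike are independent was not tested.

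Polyphosphate is a chain of phosphate units that cells store and release, and astrocytes are among the cells known to release it in the nervous system. Medium from cultured astrocytes carries cytokines, growth factors and metabolites, and wild-type SOD1 medium serves in this field as the comparator for medium of astrocytes with SOD1 changes that cause amyotrophic lateral sclerosis (ALS). Some cytokines act on glia and neurons through NF-kB, a family of transcription factors held in the cytoplasm by IkB proteins. NF-kB switches on chemokine and adhesion genes quickly, together with its own inhibitors, which close the loop. Growth factors and calcium entry switch on a second early class, the immediate early genes, through serum response factor, CREB and MAP kinases.

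The libraries did not form 1 uniform set. Clustering of all 19 split them into 2 sets and, within the first, into 2 classes that cut across the labels' groups. Class C held 2 polyP and 2 wtSOD1-ACM libraries with 6.54 to 9.61 FPKM of the myelin gene Mbp. Class B held polyP 3 and wtSOD1-ACM 1 and 2, with 292 to 335 FPKM. Class A held polyP 1 and 2, with 212 and 216 FPKM, and no wtSOD1-ACM library. Classes were found from the data and are not groups of the study, and differences of single genes are therefore also given within class B (1 against 2 libraries) and class C (2 against 2), as values with no test. Counts of genes that passed within set 1 (classes A and B, 3 against 2) or within class C, which is also set 2, come from separate limma fits on those libraries. The depth of sequencing is not part of the table. Relative depth recovered from the smallest values ran from 0.796 to 1.35 times the median library in these 9 libraries. Summed FPKM was 502342 ± 12154 in polyP (SD, n = 5) and 467883 ± 3383 in wtSOD1-ACM (n = 4), with no overlap (ratio 1.07, exact two-sided permutation test p = 0.0159, smallest possible 0.00794), and it was 464188 ± 13827 in control (n = 5).

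Neuronal genes were highly expressed in both groups. Tubb3, a neuronal tubulin, lay between 506 and 773 FPKM in the 9 libraries, and the 16 pan-neuronal markers summed to 2398 to 3090 FPKM in polyP and 2558 to 2664 in wtSOD1-ACM. Motor neurons were scarce by their markers: Chat, the enzyme that makes acetylcholine, lay between 0.34 and 0.84 FPKM in polyP and between 0.55 and 1.08 in wtSOD1-ACM and was too low to test, and 8 motor neuron genes together gave 9.27 to 21.3 FPKM in these 9 libraries. The cultures held astroglia, oligodendrocyte lineage cells and microglia as well, by the marker levels given at the end.

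With polyP, 2499 genes were higher and 989 were lower than with wtSOD1-ACM (limma on log2(FPKM + 1), adjusted p under 0.05), which is 21% and 8.32% of the genes tested and 29.3% in either direction. The counts of every gene list below are to be read beside these shares. Differences below are polyP minus wtSOD1-ACM on the log2(FPKM + 1) scale unless a sentence says otherwise, and on this scale the change of low genes is understated. Most higher calls were small and the large differences were nearly all lower. Among called genes the median difference was 0.31 for the higher and -0.44 for the lower, and over all genes tested it was 0.047. Differences of 1 or more were found for 4 genes on the higher side and 92 on the lower side, and 13 genes were lower by 2 or more. The balance of calls depended on scaling. Of the calls, 71.6% were higher as deposited, 51.9% after median-of-ratios scaling (1546 higher, 1435 lower), 48.7% after scaling to equal summed FPKM (1376 and 1447) and 67.1% after quantile normalization (2139 and 1049). Of the 3488 called genes, 2906 had polyP and wtSOD1-ACM libraries that did not overlap, and over all genes tested the libraries did not overlap for 19.9% with polyP higher and 7.76% with polyP lower. The filter on low values let in 86 genes only through the wtSOD1-ACM libraries, of which 21 were called lower, and 61 only through the polyP libraries, of which 7 were called higher. For these genes the direction is in part fixed by the filter.

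**Figure D1:**
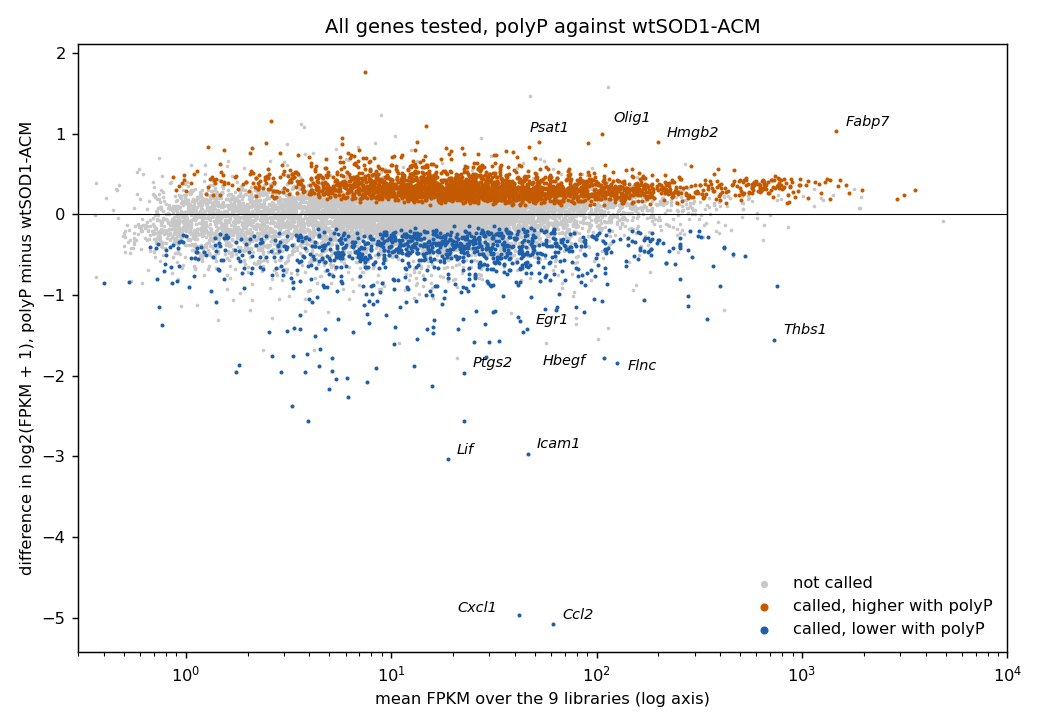
Mean FPKM over the 9 libraries (log axis) against the difference in log2(FPKM + 1), polyP minus wtSOD1-ACM, for the 11887 genes tested, 1 point per gene. Called genes reach -5.08 on the lower side (Ccl2), while on the higher side 4 called genes pass 1.

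Promoter sequences of some genes lower with polyP are shown first, because many genes with the largest differences are textbook targets of NF-kB. The 250 bases before the gene start were taken from RefSeq (build GRCr8, which is not the build of the FPKM table) for 9586 of the 11887 genes tested, matched by gene identifier. A kappaB-like motif, GGG and TTCC with any 3 bases between them, on either strand, stood in 5.41% of these windows. It stood in 17 of the 67 windows (25.4%) of genes called lower by 1 or more, in 7.16% of all called lower and in 4.62% of all called higher. The kappaB-like motif was not the only one more frequent among the genes lower by 1 or more: the AP-1 motif TGANTCA stood in 13.4% of their windows and 4.21% of all, and the CArG box in 4.48% and 1.07%. Among the chemokine genes with a window the kappaB-like motif stood in 5 of 9 (55.6%) and the AP-1 motif in 3 of 9. Some genes in these shares, Ccl7 and Il6 among them, were tested only through the wtSOD1-ACM libraries. The shares are therefore in part fixed by the filter on low values. The windows around the motif are printed 5′ to 3′ on the strand of the gene, with every match in capitals. Matches may overlap each other, and a match is a description of the letters only. The genes printed here were chosen because they hold the motif, not by the size of their difference. Most windows of genes lower by 1 or more hold no kappaB-like motif.
Cxcl1 (chr14:17479366-17479435, minus strand): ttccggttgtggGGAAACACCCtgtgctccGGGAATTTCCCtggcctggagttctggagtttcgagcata
Ccl20 (chr9:91837040-91837109, plus strand): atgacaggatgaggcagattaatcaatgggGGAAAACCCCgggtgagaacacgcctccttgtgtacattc
Ccl7 (chr10:67514006-67514075, plus strand): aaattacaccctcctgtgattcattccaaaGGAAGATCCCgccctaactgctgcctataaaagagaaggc
Nfkbia (chr6:78597073-78597133, minus strand): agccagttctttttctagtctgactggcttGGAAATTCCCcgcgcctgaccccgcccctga
Nfkbiz (chr11:58251678-58251720, plus strand): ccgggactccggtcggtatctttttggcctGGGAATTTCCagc
Nfkb2 (chr1:255108324-255108373, plus strand): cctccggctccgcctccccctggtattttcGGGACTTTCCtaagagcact
Gbp5 (chr2:233910875-233910944, plus strand): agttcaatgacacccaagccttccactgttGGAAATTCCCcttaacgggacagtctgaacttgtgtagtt
Il6 (chr4:5894604-5894673, minus strand): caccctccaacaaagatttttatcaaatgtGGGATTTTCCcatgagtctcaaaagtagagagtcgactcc
In Cxcl1 the 2 clusters of capitals hold 3 matches, of which 2 overlap by all but 1 base. The distance from the first base of the motif to the gene start was 13 bases in Nfkbiz, 20 in Nfkb2, 31 in Nfkbia, 59 in Ccl7 and 89 in Ccl20. Ccl2, Lif and Birc3 were not matched.

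Chemokines, the secreted proteins that draw leukocytes and microglia, separated the groups most. Of 23 genes on the list, 13 were tested, 10 were lower with polyP, none was higher, and the median difference was -1.75. Of the 10, 3 (Ccl7 among them) passed the filter on low values only through the wtSOD1-ACM libraries, so their direction is in part fixed by it. Ccl2, which attracts monocytes, read 2.16, 1.79, 4.74, 2.55 and 3.87 FPKM in the 5 polyP libraries and 168, 165, 98.5 and 105 in the 4 wtSOD1-ACM libraries. All polyP libraries stayed at the level of the untreated cultures (4.28 ± 2.37 FPKM, SD, n = 5), and the lowest wtSOD1-ACM library stood far above the highest polyP library. The ratio of mean FPKM was 44.4, and the difference was -5.08 (SE 0.30, adjusted p 6.93e-09). Cxcl1, which attracts neutrophils, read 2.32, 2.11, 1.59, 1.68 and 1.84 FPKM with polyP and 112, 108, 71.6 and 74.7 with wtSOD1-ACM. The difference was -4.97 (SE 0.16, adjusted p 5.01e-13), the smallest p of all genes tested. In both genes the 2 class B libraries of the wtSOD1-ACM group were higher than the 2 of class C, and within classes the difference kept its size (-4.87 in class B and -4.63 in class C for Ccl2). Ccl20 (0.576 against 8.17 mean FPKM) and Ccl7 (0.474 against 6.80) were lower, at -2.57 and -2.37. Cxcl12 and Cxcl14, chemokines that many resting tissues make, gave 0.28 and 0.11 and did not pass.

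The genes that carry and restrain NF-kB itself followed the same direction. On the list of subunits and feedback inhibitors, 9 of 16 tested genes were lower with polyP and none was higher (median -0.56). Nfkbia encodes IkB-alpha, the inhibitor that NF-kB induces fastest. It read 15.7, 15.2, 20.5, 18.1 and 15.9 FPKM with polyP and 62.8, 65.1, 42.1 and 44.2 with wtSOD1-ACM, without overlap, a difference of -1.58 (SE 0.13, adjusted p 4.00e-07). Its level in the polyP libraries was that of the untreated cultures (16.5 ± 2.50 FPKM). Nfkbiz, a nuclear IkB protein, averaged 1.64 ± 0.245 FPKM with polyP and 11.8 ± 1.98 with wtSOD1-ACM (difference -2.27, SE 0.13, adjusted p 3.09e-09). The precursor subunits Nfkb2 and Nfkb1 were lower, at -1.40 and -0.86, and Birc3, which blocks cell death downstream of TNF receptors, at -1.95. Kinase and adaptor genes upstream of the inhibitors moved little: Chuk gave -0.30, Ikbkb -0.11 and Ikbkg 0.082, none of which passed.

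Downstream inflammatory targets of NF-kB gave 14 lower of 19 tested and none higher (median -0.82), with 2 of the 14 tested only because they were high with wtSOD1-ACM. Icam1, the adhesion receptor for leukocytes, read 9.46, 10.9, 12.7, 8.59 and 12.1 FPKM with polyP against 99.2, 101, 75.4 and 87.3 with wtSOD1-ACM. The 2 groups lay on opposite sides of control (19.0 ± 6.23 FPKM), and the difference between them was -2.97 (SE 0.16, adjusted p 3.09e-09). Tnfaip2 averaged 5.80 and 28.4 FPKM (difference -2.12). Zc3h12a, a nuclease that degrades cytokine transcripts, averaged 1.95 and 9.21 (difference -1.78), and Gadd45b, a stress sensor, 39.5 and 70.5 (difference -0.82). Il1b, the precursor of interleukin 1 beta, read 1.66, 0.720, 1.47, 0.690 and 0.550 FPKM with polyP and 18.1, 21.2, 2.08 and 2.26 with wtSOD1-ACM. Both class B libraries of the wtSOD1-ACM group were high and both class C libraries lay just above the polyP range. Its difference of -2.04 (SE 0.53, adjusted p 0.00734) was -3.06 in class B and -0.97 in class C. Microglial marker sums also differed by class: the 17 genes of that list summed to 102 to 306 FPKM in polyP and 87.7 to 428 in wtSOD1-ACM, and none of the 16 tested was called. All 16 were on the lower side, with a median of -1.17 within set 1, -0.44 within class B and 0.087 within class C. Their part in the difference of Il1b, and in that of Gbp5 described next, was not tested. In bulk RNA, fewer cells of a type and less RNA per cell cannot be told apart.

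**Figure D2:**
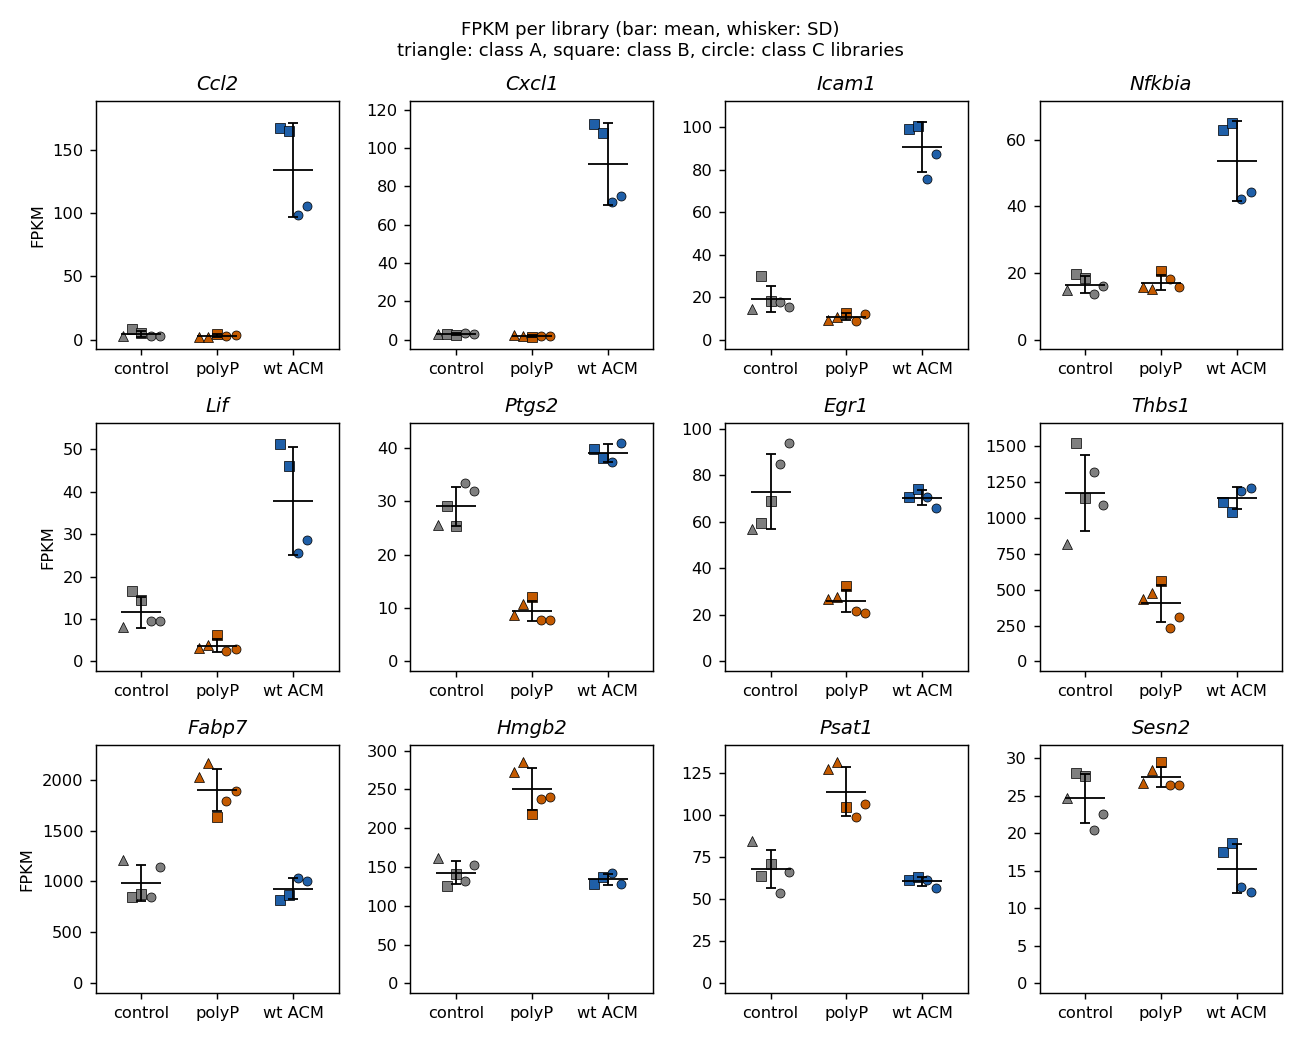
FPKM in each control, polyP and wtSOD1-ACM library (wt ACM on the axis) for 12 genes, with the mean (bar) and SD (whisker), and the class of the library by symbol. For Ccl2 and Nfkbia polyP sits with control and wtSOD1-ACM stands above, for Egr1 and Thbs1 wtSOD1-ACM sits with control and polyP stands below, and for Fabp7, Hmgb2 and Psat1 polyP stands above both.

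Interferon-responsive genes were a weaker group, with 4 lower of 22 tested and none higher (median -0.25). The median was -0.45 within set 1, -0.12 within class B and 0.014 within class C. With library class as a term 7 were lower and 1 higher. Gbp5, a guanylate-binding protein of the antimicrobial response, read 1.13, 1.20, 1.53, 0.750 and 1.15 FPKM with polyP and 14.7, 14.7, 5.01 and 4.64 with wtSOD1-ACM (difference -2.16, SE 0.31, adjusted p 1.42e-04). Gbp2 was lower, at -1.44. Irf1, a transcription factor that both interferon and NF-kB induce, averaged 2.39 FPKM with polyP, 6.26 with wtSOD1-ACM and 2.59 in control, a difference of -1.08 (SE 0.16, adjusted p 1.51e-04). The antiviral genes Isg15 and Mx2 gave 0.078 and 0.031 and did not pass.

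Cytokines of the IL-6 family and genes that STAT3 induces gave 17 lower of 23 tested and none higher (median -0.58). Lif, leukemia inhibitory factor, which acts on neurons and astrocytes through the receptor subunit gp130, read 3.25, 3.78, 6.26, 2.35 and 2.87 FPKM with polyP and 51.1, 45.9, 25.5 and 28.5 with wtSOD1-ACM. Control stood between them at 11.6 ± 3.63 FPKM, and the difference was -3.04 (SE 0.24, adjusted p 2.15e-07). Against control, polyP was at -1.43 (adjusted p 2.51e-04) and wtSOD1-ACM at 1.61 (adjusted p 0.00120). Il6 itself was low in both groups, at 0.126 ± 0.0559 and 1.51 ± 0.397 FPKM. It reached 1 FPKM in the wtSOD1-ACM libraries only and was tested through them, so its call (difference -1.14, SE 0.13, adjusted p 1.66e-05) is in part fixed by the filter. Stat3 differed little but tightly, with 53.1, 50.9, 50.8, 46.9 and 48.4 FPKM against 67.3, 68.3, 64.6 and 63.5, a difference of -0.39 (SE 0.045, adjusted p 1.58e-05). Pim1, a kinase that STAT3 induces, was lower, at -0.84. Gfap, the astrocyte intermediate filament that is itself a STAT3 target, gave -0.76 (SE 0.26, adjusted p 0.0331), but its libraries overlapped. The call was lost without any 1 of 5 libraries (polyP 1, 4 or 5 and wtSOD1-ACM 1 or 2), without polyP 1 and 2 together, and within set 1.

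A second group of genes was also lower, but with a different position of control. Immediate early genes, the first wave after growth factors or depolarization, gave 20 lower and 2 higher of 38 tested (median -0.40). Egr1, a zinc finger factor at the head of this wave, read 27.0, 27.5, 32.5, 21.5 and 21.0 FPKM with polyP and 70.8, 73.9, 70.5 and 66.1 with wtSOD1-ACM. The wtSOD1-ACM libraries matched control (72.9 ± 16.1 FPKM), and all polyP libraries lay below both. The difference was -1.42 (SE 0.15, adjusted p 4.03e-06). Egr2 showed the same layout, with 8.17 FPKM in polyP, 23.3 in wtSOD1-ACM and 22 in control (difference -1.42, SE 0.13, adjusted p 1.09e-06). Fosl1, an AP-1 subunit, and Ier3, a stress-induced survival gene, were lower, at -1.36 and -1.46, and in these control lay between the groups (16.6, 29.2 and 43.8 FPKM for polyP, control and wtSOD1-ACM in Fosl1). Maff, a small basic leucine zipper factor, was lower, at -0.87.

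Some early genes did not pass the test. Fos read 163, 137, 139, 89.1 and 78.1 FPKM with polyP and 171, 175, 92.0 and 87.3 with wtSOD1-ACM, with higher values in set 1 (classes A and B) than in class C of both groups. The difference was -0.095 with a 95% interval of -0.69 to 0.50. Npas4, which neuronal calcium entry induces, gave 0.061 (-1.04 to 1.17), and Bdnf, brain-derived neurotrophic factor, 0.037 (-0.22 to 0.29). Each of these 3 intervals includes differences in both directions. Serum response factor acts on early genes through the CArG box, which stood in 5 of 26 early gene windows (19.2%) and in 1.07% of all windows. One such window is shown because Egr2 was lower in every polyP library.
Egr2 (chr20:21054485-21054554, minus strand): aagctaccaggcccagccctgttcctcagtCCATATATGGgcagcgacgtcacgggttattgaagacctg
The capitals mark the CArG box, 83 bases before the gene start.

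Later activity-regulated genes gave 9 lower and 2 higher of 26 tested (median -0.30). Ptgs2, the inducible cyclooxygenase that makes prostaglandin precursors, read 8.76, 10.8, 12.0, 7.82 and 7.69 FPKM with polyP and 39.7, 38.1, 37.4 and 40.9 with wtSOD1-ACM. Control (29.1 ± 3.63 FPKM) lay nearer to wtSOD1-ACM, and the difference between the groups was -1.96 (SE 0.12, adjusted p 7.04e-09). Vgf, a secreted neuropeptide precursor that CREB drives, was lower, at -1.14 (SE 0.10, adjusted p 4.86e-07), at 182 against 401 FPKM. Its promoter window is shown for the CREB site, the cyclic AMP response element TGACGTCA, a motif that stood in 3.08% of all windows, 4.48% of those of genes lower by 1 or more and 15.4% of those of immediate early genes.
Vgf (chr12:25277073-25277140, minus strand): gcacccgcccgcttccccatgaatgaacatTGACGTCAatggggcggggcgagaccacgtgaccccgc
The capitals mark TGACGTCA, 90 bases before the gene start. Among genes that MAP kinases induce as their own brakes or ligands, 8 were lower and 2 higher of 23 tested. Hbegf, a ligand of the EGF receptor, read 56.1, 57.2, 64.5, 36.0 and 48.0 FPKM with polyP and 182, 188, 172 and 175 with wtSOD1-ACM (difference -1.78, SE 0.13, adjusted p 9.86e-08). Phlda1 and the phosphatase gene Dusp2 were lower, at -0.84 and -0.91. Etv5, an ETS factor that FGF receptors induce, was higher with polyP in all libraries (66.5 against 43.7 FPKM, difference 0.59, SE 0.067, adjusted p 1.35e-05), the opposite direction to most called genes of the list.

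Genes of the extracellular matrix and its regulators were lower with polyP. Of 22 collagen and matrix genes tested, 14 were lower and none was higher (median -0.63). Thbs1, thrombospondin 1, a matrix protein that astrocytes secrete and that promotes synapse formation, read 436, 476, 560.3, 236 and 311 FPKM with polyP and 1112, 1041, 1189 and 1208 with wtSOD1-ACM. Its levels with wtSOD1-ACM were those of control (1176 ± 264 FPKM). The difference was -1.55 (SE 0.21, adjusted p 6.83e-05), with -0.94 in class B and -2.14 in class C. Fn1, fibronectin, averaged 287 FPKM with polyP, 534 with wtSOD1-ACM and 534 in control, and Tnc, tenascin C, 65.4, 137 and 135. Has2, which makes hyaluronan, was lower, at -1.88 (SE 0.21, adjusted p 1.35e-05), and there wtSOD1-ACM stood above control (8.18 against 2.66 FPKM). Within set 1 alone 4 of the 22 passed, with a median of -0.61, and within class C 21 passed with a median of -0.77. Within class B, without the class A polyP libraries of set 1, the median was -0.34. Of 9 fibroblast and meningeal markers, 1 was lower over all libraries (median -0.12) and 5 were lower within class C (median -0.42). Within set 1 none passed and their median was 0.16, the opposite direction to the matrix genes. Within class B it was -0.19. Their part in the matrix result was not tested.

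Targets of TGF-beta and BMP signalling gave 11 lower and none higher of 24 tested (median -0.37). Smad7 and Pmepa1, inhibitors that TGF-beta induces against itself, were lower, at -1.12 (SE 0.076, adjusted p 3.11e-08) and -1.15 (SE 0.094, adjusted p 2.60e-07). Targets of YAP and serum response factor gave 6 higher and 6 lower of 28 (median 0.058), and 3 higher and 7 lower after equal summed FPKM (median -0.041). Their share of higher calls was near the 21% of all genes tested. On the lower side were Flnc, a filamin that cross-links actin (59.5 against 209 FPKM, difference -1.84, SE 0.22, adjusted p 2.28e-05), Cyr61 (-1.02) and Ctgf (-0.88), both secreted matrix proteins. In Flnc polyP 3, the only class B library of its group, stood apart from the other 4 polyP libraries, at 94.7 FPKM against 45.9 to 53.5. The difference of Flnc was -1.16 in class B and -2.02 in class C. On the higher side was Acta1, skeletal actin (0.65).

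Vascular growth and plasminogen genes gave 10 lower and 1 higher of 23 (median -0.25). Pgf, placental growth factor, read 1.91, 2.77, 2.65, 1.90 and 3.62 FPKM with polyP and 14.4, 14.4, 12.6 and 14.2 with wtSOD1-ACM (difference -2.08, SE 0.12, adjusted p 4.86e-09). Angptl4, an inhibitor of lipoprotein lipase, averaged 13.0 and 40.5 FPKM, with control at 16.1 (difference -1.58, SE 0.13, adjusted p 2.15e-07). Plaur, the urokinase receptor, was lower, at -1.88, and Pdgfb, a growth factor for pericytes and glial progenitors, at -1.18. F3, tissue factor, which starts coagulation, read 54.8, 59.3, 57.0, 44.7 and 57.7 FPKM against 124, 137, 122 and 126 (difference -1.21, SE 0.10, adjusted p 2.26e-07). The other genes named for a large or abundant difference on the lower side were Pkp1, a desmosome protein (-2.03), Olr1, the receptor for oxidized LDL (-1.95), and PVR, the poliovirus receptor homologue (-1.17).

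Setting each group beside control shows 3 layouts among the genes just described. Both comparisons share the 5 control libraries, so they are given side by side and not correlated. Against control, polyP gave 2736 higher and 1043 lower genes (23% and 8.77%), and wtSOD1-ACM gave 67 higher and 8 lower (0.564% and 0.0673%). In the first layout wtSOD1-ACM alone departed from control: Ccl2 was at 4.74 with wtSOD1-ACM and -0.34 with polyP, Nfkbia at 1.62 and 0.048, and Stat3 at 0.43 and 0.036. In the second polyP alone departed: Egr1 was at -0.025 with wtSOD1-ACM and -1.45 with polyP, Thbs1 at -0.020 and -1.58, and Fn1 at 0.012 and -0.88. In the third the groups departed in opposite directions: Lif was at 1.61 and -1.43, Icam1 at 2.23 and -0.74, and F3 at 0.58 and -0.63. The layouts were read from the values and were chosen after these were seen.

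**Figure D3:**
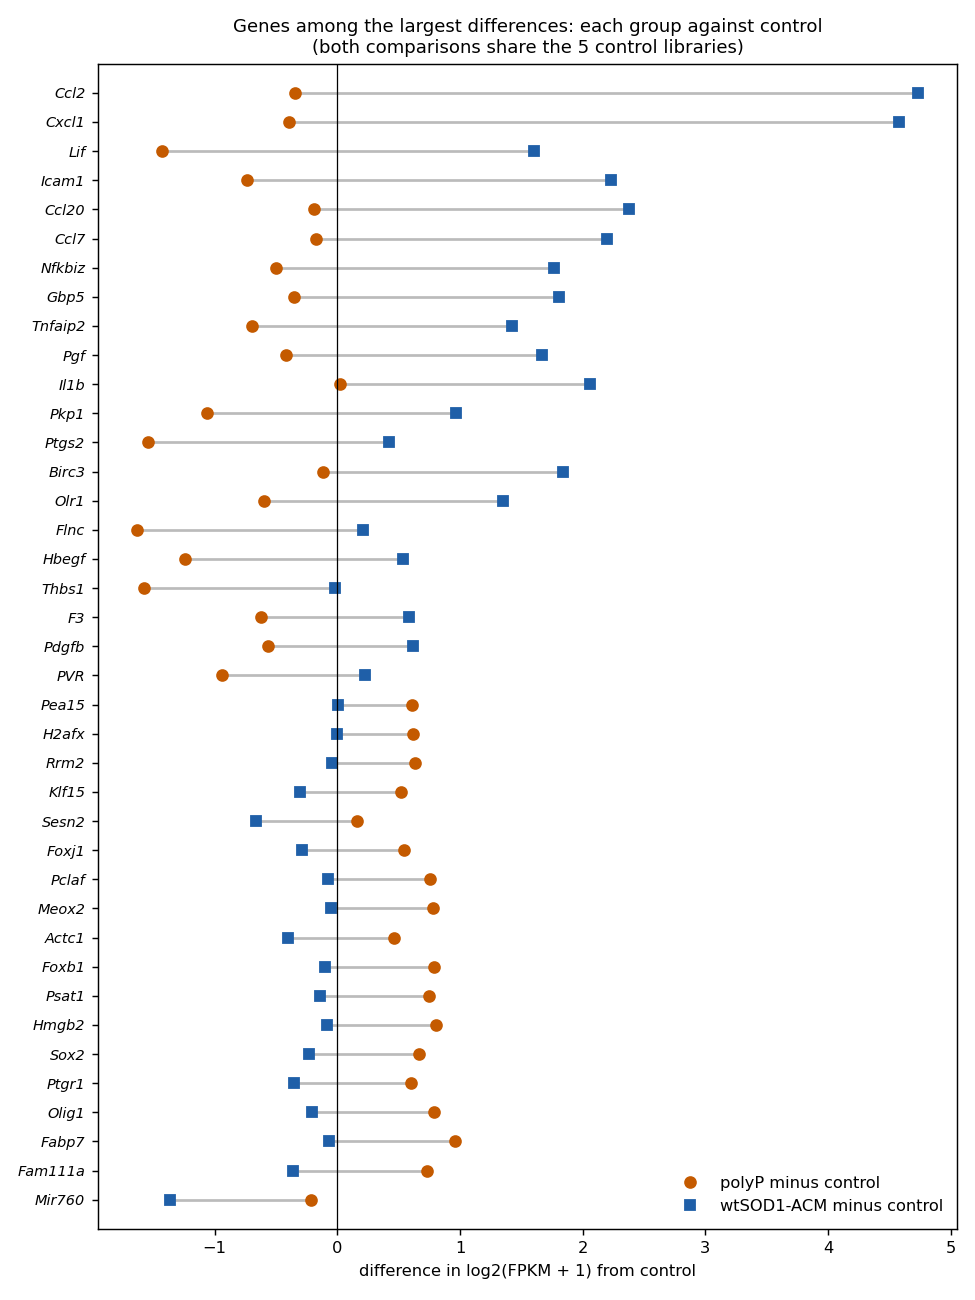
Difference in log2(FPKM + 1) from control for polyP (circles) and wtSOD1-ACM (squares), for genes among those with the largest differences between the 2 groups. Both sets of values use the same 5 control libraries. Ccl2 and Cxcl1 lie at -0.34 and -0.39 for polyP and above 4 for wtSOD1-ACM, and for Thbs1 the reverse holds, with wtSOD1-ACM near 0 and polyP at -1.58.

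Genes of excitability were lower with polyP in small steps. Of 9 sodium channel subunits 6 were lower and none higher (median -0.42), and of 29 genes for calcium channels, pumps and store release 14 were lower and none higher (median -0.40). Scn2a, a pore-forming sodium channel subunit, read 11.1, 9.98, 10.2, 9.91 and 9.25 FPKM with polyP and 13.0, 13.4, 14.1 and 15.2 with wtSOD1-ACM (difference -0.42, SE 0.087, adjusted p 0.00166). Atp2a2, the pump that loads calcium into the endoplasmic reticulum, averaged 156 and 219 FPKM (difference -0.50, SE 0.090, adjusted p 6.91e-04), and Cacna1c, an L-type calcium channel, 5.79 and 8.46 (difference -0.48, SE 0.10, adjusted p 0.00202). In these 3 genes wtSOD1-ACM lay close to control. Within set 1 alone 1 sodium channel subunit and 1 calcium gene passed (medians -0.31 and -0.34), and within class C 8 and 23 passed (medians -0.52 and -0.46). Set 1 includes the class A polyP libraries, which have no wtSOD1-ACM counterpart. Within class B alone the medians were smaller, at -0.17 for both lists.

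Potassium channel subunits gave 7 lower and none higher of 35 (median -0.19), a share of lower calls above the 8.32% of all genes. Kcnj4, an inward rectifier, was lower, at -0.69 (SE 0.11, adjusted p 2.55e-04) at low levels (0.922 against 2.10 FPKM), and Kcnk3, a leak channel, at -0.40. Kcnt1, a sodium-activated channel, gave -0.89 (SE 0.27, adjusted p 0.0186). Its call was lost without polyP 2, without wtSOD1-ACM 3 or 4, without polyP 1 and 2 together, and within set 1. Glutamate receptors gave 5 lower and none higher of 25 (median -0.24). Of these subunits 9 were lower after equal summed FPKM, 1 within set 1 (median -0.15), 13 within class C (median -0.31) and 2 without polyP 1 and 2. Grin1, the obligatory NMDA receptor subunit, read 29.8, 28.0, 37.1, 36.8 and 34.7 FPKM with polyP and 44.8, 46.6, 60.9 and 63.0 with wtSOD1-ACM (difference -0.67, SE 0.14, adjusted p 0.00240). The AMPA subunit Gria2 was lower, at -0.50 (SE 0.13, adjusted p 0.00653), a call lost without polyP 1 and 2 and within set 1. Both differences were smaller in class B (-0.29 and -0.13) than in class C (-0.78 and -0.58). GABA and glycine receptor subunits gave 3 lower and 1 higher of 17: Gabbr1 was lower, at -0.32 and Gabra4 higher by 0.71 (SE 0.16, adjusted p 0.00295).

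Synaptic vesicle and SNARE genes gave 4 lower and none higher of 30 (median -0.058), where 8.32% of all genes tested were lower. As a list they were thus little different from all genes on the lower side. Sv2a, a vesicle glycoprotein, was lower, at -0.58 (SE 0.10, adjusted p 6.08e-04), and the glutamate and GABA vesicle transporters Slc17a6 and Slc32a1 at -0.33 and -0.54. Unc13a, which primes vesicles, gave -0.67 (SE 0.20, adjusted p 0.0185), with -0.083 in class B and -0.72 in class C. The call was lost without polyP 2, without wtSOD1-ACM 3 or 4, without polyP 1 and 2 together, and within set 1. Neuropeptide and granin precursors gave 6 lower and none higher of 23 (median -0.14). Gal, galanin, a peptide that injured neurons make, read 1.98, 1.37, 2.05, 1.5 and 1.63 FPKM with polyP and 7.67, 8.41, 10.8 and 10.8 with wtSOD1-ACM. Control lay between them at 3.84 ± 0.688 FPKM, and the difference was -1.94 (SE 0.19, adjusted p 3.28e-06). Scg2 and the convertase Pcsk2 were lower, at -0.47 and -0.39. Inhibitory neuron markers gave 4 lower of 8: Slc6a5, the glycine transporter of inhibitory terminals, was lower, at -0.68 (SE 0.13, adjusted p 9.05e-04) and Gad1, which makes GABA, at -0.63 (SE 0.15, adjusted p 0.00472). The Slc6a5 and Gad1 calls were lost within set 1. Gad2, Pax2 and Lhx1, other markers of inhibitory neurons, gave -0.043, -0.075 and -0.048 and did not pass.

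On the higher side, the difference of 1 or more in 4 genes belonged to RGD1309028, Mir760, Fam111a and Fabp7. RGD1309028, a gene with an identifier in place of a symbol and named here after its values were seen, averaged 11.3 ± 2.05 FPKM with polyP, 2.62 ± 0.744 with wtSOD1-ACM and 4.09 ± 0.505 in control (difference 1.77, SE 0.16, adjusted p 6.40e-07). Mir760 is a microRNA precursor and its FPKM is uncertain, since the unit is unstable for so short a transcript. It gave 1.16 (SE 0.29, adjusted p 0.00670), with wtSOD1-ACM below control (-1.37), and the call was lost without polyP 1 and 2. Fam111a, a protease that works at replication forks, gave 1.10 (SE 0.30, adjusted p 0.0100) and was lost in the same way. Fabp7, brain lipid binding protein, a fatty acid carrier of radial glia, read 2025, 2164, 1631, 1789 and 1885 FPKM with polyP and 817, 864, 1034 and 1006 with wtSOD1-ACM. The lowest polyP library was above the highest wtSOD1-ACM library, control (983 ± 177 FPKM) matched wtSOD1-ACM, and the difference was 1.03 (SE 0.14, adjusted p 5.60e-05).

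Of the 15 markers of astrocytes and radial glia, 6 were higher with polyP and 2 lower (Gfap, and the progenitor filament gene Nes at -0.29, named after its values were seen). Sox2, which keeps neural progenitors undifferentiated, read 68.0, 68.8, 70.2, 62.2 and 61.1 FPKM against 36.5, 42.4, 29.5 and 32.6 (difference 0.90, SE 0.15, adjusted p 4.54e-04). Olig1, an oligodendrocyte lineage factor, read 156, 165, 134, 108 and 119.9 against 77.9, 87.5, 56.2 and 53.9 (difference 0.99, SE 0.24, adjusted p 0.00506). Foxj1, the factor for motile cilia of ependymal cells, was higher by 0.83, Sox9, a gliogenic factor, by 0.43, and Pea15, an astrocyte phosphoprotein, by 0.60. The astrocyte transporters Slc1a2 and Slc1a3 gave 0.082 and -0.19 and the water channel Aqp4 0.075, none of which passed. Smaller genes on this side were Klf15 (0.82), Meox2 (0.83) and Foxb1 (0.89), transcription factors at under 5 FPKM, of which Meox2 was tested only through the polyP libraries, and Ptgr1, a prostaglandin reductase (0.95, lost without polyP 1 and 2). The Meox2 and Ptgr1 calls were lost within set 1. Actc1, cardiac actin, gave 0.87 (SE 0.26, adjusted p 0.0162). Its call was lost without wtSOD1-ACM 1 or 2, without polyP 1 and 2 together, and within set 2.

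Genes of DNA replication and the cell cycle were higher as a group, with 30 of 37 higher and none lower (median 0.41). After equal summed FPKM 24 were higher and 1 lower (median 0.31). Within set 1 the counts were 27 higher and 2 lower, and within class C 30 and 2. Hmgb2, a chromatin protein of dividing cells, read 272, 285, 218, 238 and 239 FPKM with polyP and 128, 137, 142 and 128 with wtSOD1-ACM (difference 0.89, SE 0.11, adjusted p 1.88e-05). Cdc20, which activates the anaphase-promoting complex, read 40.0, 43.9, 37.4, 40.0 and 39.5 against 27.1, 26.8, 26.1 and 25.5 (difference 0.59, SE 0.065, adjusted p 9.67e-06). Rrm2, which makes deoxyribonucleotides, Pclaf, a partner of PCNA, and H2afx, a histone variant, were higher by 0.68, 0.83 and 0.62, and Mcm2, of the replicative helicase, by 0.44. In class B the median of the list was 0.41 and in class C 0.38. In each of these named genes control lay with wtSOD1-ACM and not with polyP.

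The most uniform group was that of cytosolic ribosomal proteins. All 52 tested genes were higher with polyP, with differences from 0.24 to 0.47 and a median of 0.37. Rpl4 read 671, 698, 629, 673 and 691 FPKM with polyP and 513, 526, 513 and 467 with wtSOD1-ACM (difference 0.41, SE 0.062, adjusted p 1.78e-04), and Rps12 averaged 866 and 629.8 (difference 0.45, SE 0.069, adjusted p 2.08e-04). These genes have many processed copies in the genome, so their FPKM depend on how shared reads were counted. Scaling mattered: 50 of 52 were called after median-of-ratios scaling or equal summed FPKM (medians 0.29 and 0.27) and 25 after quantile normalization (median 0.12), all higher. Within set 1 alone 22 passed (median 0.33), and within class C 51 did (median 0.44). Within class B the median was 0.21.

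Mitochondrial ribosomal proteins gave 20 higher and none lower of 29 (median 0.27), proteasome subunits 28 higher and none lower of 31 (median 0.27), and nuclear-encoded respiratory chain genes 16 higher and none lower of 41 (median 0.18). Mrpl16, of the large mitochondrial subunit, read 18.9, 17.9, 17.5, 18.2 and 18.8 FPKM against 14.0, 13.3, 13.6 and 12.6 (difference 0.42, SE 0.056, adjusted p 6.30e-05). Psma4, a core proteasome subunit, averaged 125 and 99.3 FPKM (difference 0.33, SE 0.065, adjusted p 0.00135), and Sdhc, of respiratory complex II, 160.0 and 123 (difference 0.38, SE 0.074, adjusted p 0.00119). Within set 1 alone no proteasome subunit and no respiratory chain gene passed (medians 0.22 and 0.16), and within class C 28 and 23 were higher. Within class B the medians were 0.12 and 0.082. After equal summed FPKM the counts higher were 19 of 31 proteasome subunits and 8 of 41 respiratory chain genes, against 1 lower in the second.

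**Figure D4:**
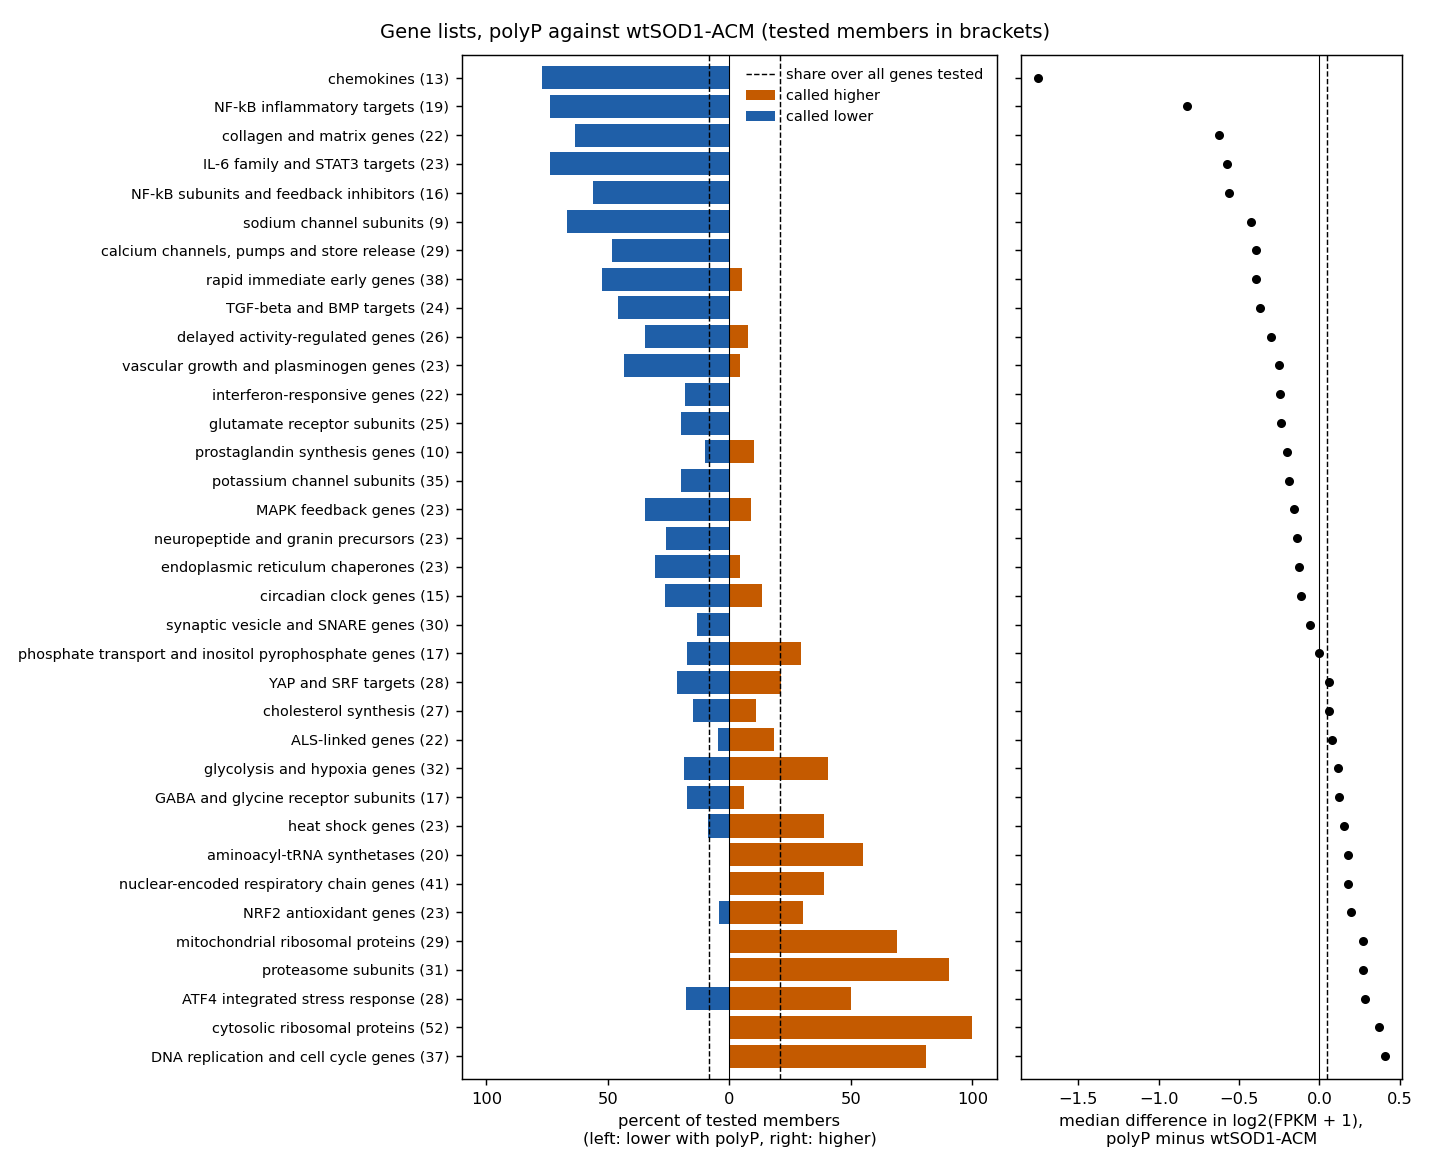
Left, percent of the tested members of each gene list that were called lower (to the left) or higher (to the right) with polyP, with dashed lines at 8.32% and 21%, the shares over all genes tested. Right, median difference in log2(FPKM + 1) of each list, with a dashed line at the median of all genes, 0.047. Chemokines lie lowest at -1.75, and cytosolic ribosomal proteins (0.37) and cell cycle genes (0.41) highest.

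On the list of genes that the stress factor ATF4 drives, 14 were higher and 5 lower of 28 (median 0.28). Serine and one-carbon enzymes were among the higher. Psat1, of serine synthesis, read 128, 131, 105, 99.3 and 106 FPKM with polyP and 61.5, 63.0, 61.7 and 57.0 with wtSOD1-ACM (difference 0.89, SE 0.13, adjusted p 2.01e-04). Psph, which completes that pathway, averaged 17.8 and 11.5 FPKM (difference 0.59, SE 0.077, adjusted p 5.50e-05). For Mthfd2, the mitochondrial folate enzyme, and Asns, asparagine synthetase, wtSOD1-ACM was below control (-0.39 and -0.26). PolyP against control gave 0.12 (adjusted p 0.0993) for Mthfd2 and 0.19 (adjusted p 0.00322) for Asns. Between the groups the 2 genes differed by 0.51 (SE 0.057, adjusted p 1.10e-05) and 0.45 (SE 0.047, adjusted p 5.26e-06). Sesn2, a leucine sensor that restrains mTORC1, read 26.7, 28.4, 29.4, 26.5 and 26.5 FPKM with polyP and 17.5, 18.7, 12.8 and 12.2 with wtSOD1-ACM. Its difference was 0.83 (SE 0.12, adjusted p 1.65e-04), with -0.67 (adjusted p 0.00850) for wtSOD1-ACM and 0.16 (adjusted p 0.312) for polyP against control. Ddit4, another mTORC1 brake, was higher by 0.77 (SE 0.10, adjusted p 7.42e-05), and there polyP stood above control (0.73). Of 20 aminoacyl-tRNA synthetases 11 were higher and none lower (median 0.18), such as Gars (0.32, SE 0.049, adjusted p 2.34e-04) and Tars (0.29, SE 0.042, adjusted p 1.27e-04). After equal summed FPKM, 7 were higher and 1 lower.

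Endoplasmic reticulum chaperones gave 7 lower and 1 higher of 23 (median -0.13). Hspa5, the chaperone BiP, read 395, 422, 367, 313 and 329.9 FPKM with polyP and 467, 452, 487 and 528 with wtSOD1-ACM (difference -0.41, SE 0.084, adjusted p 0.00167), and Hyou1 and Hsp90b1 were lower, at -0.50 and -0.41, with control near wtSOD1-ACM in each. Within set 1 alone none of the 23 passed (median -0.12), and within class C 12 were lower and 3 higher. Heat shock genes of the cytosol and mitochondria gave 9 higher and 2 lower of 23 (median 0.15), and 4 higher and 2 lower after equal summed FPKM. Hspd1, the mitochondrial chaperonin, was higher by 0.33 (SE 0.057, adjusted p 4.78e-04). Bag3, a co-chaperone of selective autophagy, was lower, with 8.65, 9.62, 12.1, 9.68 and 9.71 FPKM against 21.4, 20.3, 21.4 and 19.9 (difference -0.995, SE 0.075, adjusted p 1.04e-07).

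Antioxidant genes of the NRF2 list gave 7 higher and 1 lower of 23 (median 0.20), 4 higher and 1 lower after equal summed FPKM (median 0.097), and 3 higher and 1 lower without polyP 1 and 2. Prdx1, a peroxiredoxin, and Cat, catalase, were higher by 0.44 (SE 0.10, adjusted p 0.00266) and 0.41 (SE 0.076, adjusted p 8.47e-04). Srxn1, which repairs peroxiredoxins, was lower, at -0.74 (SE 0.16, adjusted p 0.00267). Glycolysis and hypoxia genes gave 13 higher and 6 lower of 32 (median 0.11), and 9 each way after equal summed FPKM. Aldoc, an aldolase that astrocytes express, was higher by 0.46 (SE 0.076, adjusted p 3.97e-04) and Egln3, a prolyl hydroxylase that hypoxia induces, by 0.65 (SE 0.12, adjusted p 7.75e-04), while Pfkfb3, which drives glycolytic flux, was lower, at -0.56 (SE 0.091, adjusted p 3.33e-04). The Pfkfb3 call was lost within set 1. Cholesterol synthesis genes gave 3 higher and 4 lower of 27 (median 0.061), and none higher and 8 lower after equal summed FPKM (median -0.039).

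Genes that handle phosphate were looked at because phosphate is what polyP consists of. Of 17 tested, 5 were higher and 3 lower, with a median of 0.00037 (1 higher and 5 lower after equal summed FPKM, median -0.099). Slc20a1, a sodium-phosphate importer, read 56.8, 60.1, 61.1, 52.6 and 55.7 FPKM with polyP and 81.9, 83.5, 85.3 and 89.4 with wtSOD1-ACM, with control at 79.1 ± 6.74. The difference was -0.56 (SE 0.066, adjusted p 1.80e-05). Enpp1, which makes pyrophosphate outside the cell, was lower, at -0.38 (SE 0.10, adjusted p 0.00770), and Ppa1, the cytosolic pyrophosphatase, higher by 0.35 (SE 0.094, adjusted p 0.00830), a call lost without polyP 1 and 2. The Enpp1 and Ppa1 calls were lost within set 1. Xpr1, the phosphate exporter, gave 0.13 with a 95% interval of -0.24 to 0.49. Ptges3, a co-chaperone also listed as a prostaglandin synthase, was the only higher gene among 10 prostaglandin genes (0.37, SE 0.063, adjusted p 5.20e-04), and Ptgs2 the only lower one.

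Genes linked to ALS gave 4 higher and 1 lower of 22 (median 0.081), shares near those of all genes. After equal summed FPKM 1 was higher and 2 lower (median -0.016). Hnrnpa1, an RNA-binding protein, was higher by 0.32 (SE 0.052, adjusted p 3.20e-04) and was not called after quantile normalization. Optn, an autophagy receptor, was lower, at -0.30 (SE 0.085, adjusted p 0.0117), not called within set 2 or without polyP 1 and 2. Rat Sod1 read 249, 258, 207, 256 and 275 FPKM with polyP and 197, 185, 228 and 224 with wtSOD1-ACM, with an overlap between polyP 3 and 2 wtSOD1-ACM libraries. Its difference of 0.26 (95% interval 0.045 to 0.47) did not pass (adjusted p 0.0633). Circadian clock genes gave 2 higher and 4 lower of 15: Bhlhe40, a repressor that many stimuli induce, was lower, at -1.47 (SE 0.16, adjusted p 9.63e-06), and Dbp, a clock output factor, higher by 0.36 (SE 0.088, adjusted p 0.00573).

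Cell type markers were set beside these results. Oligodendrocyte lineage markers summed to 251 to 1048 FPKM in polyP and 153 to 1006 in wtSOD1-ACM, lowest in class C of both groups, and only Olig1 of 16 was called. With library class as a term 8 were higher and 1 lower, and within class C 5 were higher and 1 lower. Mbp gave 0.46 with an interval of -3.07 to 3.99. Microglial markers had a median difference of -0.44 over 16 tested, and -0.44 in class B. Markers of astrocytes and radial glia summed to 4487 to 4880 FPKM in polyP and 3419 to 3705 in wtSOD1-ACM, without overlap. The gap in the sum lay in Fabp7: without it the other 14 genes summed to 2594 to 2971 and 2602 to 2672 FPKM, which overlap. Most of that remaining sum was Vim (1728 to 2158 FPKM in polyP), so it says little about the lower markers. Gene by gene, the libraries did not overlap for 5 of the 15 with polyP higher, Fabp7 and Sox2 among them, and for 1 with polyP lower. Pan-neuronal markers gave no call among 16 (median 0.047), and 2 lower after equal summed FPKM (median -0.055). Fibroblast and meningeal markers summed to 529 to 984 FPKM in polyP and 802 to 934 in wtSOD1-ACM, with 1 of 9 called: Fbn1, fibrillin 1, was lower, at -0.60 (SE 0.13, adjusted p 0.00276). Endothelial markers summed to 12.2 to 18.8 and 17.1 to 24.3 FPKM, with Flt1, a VEGF receptor, lower, at -0.85 (SE 0.10, adjusted p 1.53e-05) and the defining genes Cdh5 and Pecam1 too low to test. Muscle markers summed to 1871 to 2428 and 1595 to 1884 FPKM. No listed marker was at 0 in every library of a group, and their part in the other results was not tested.

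**Figure D5:**
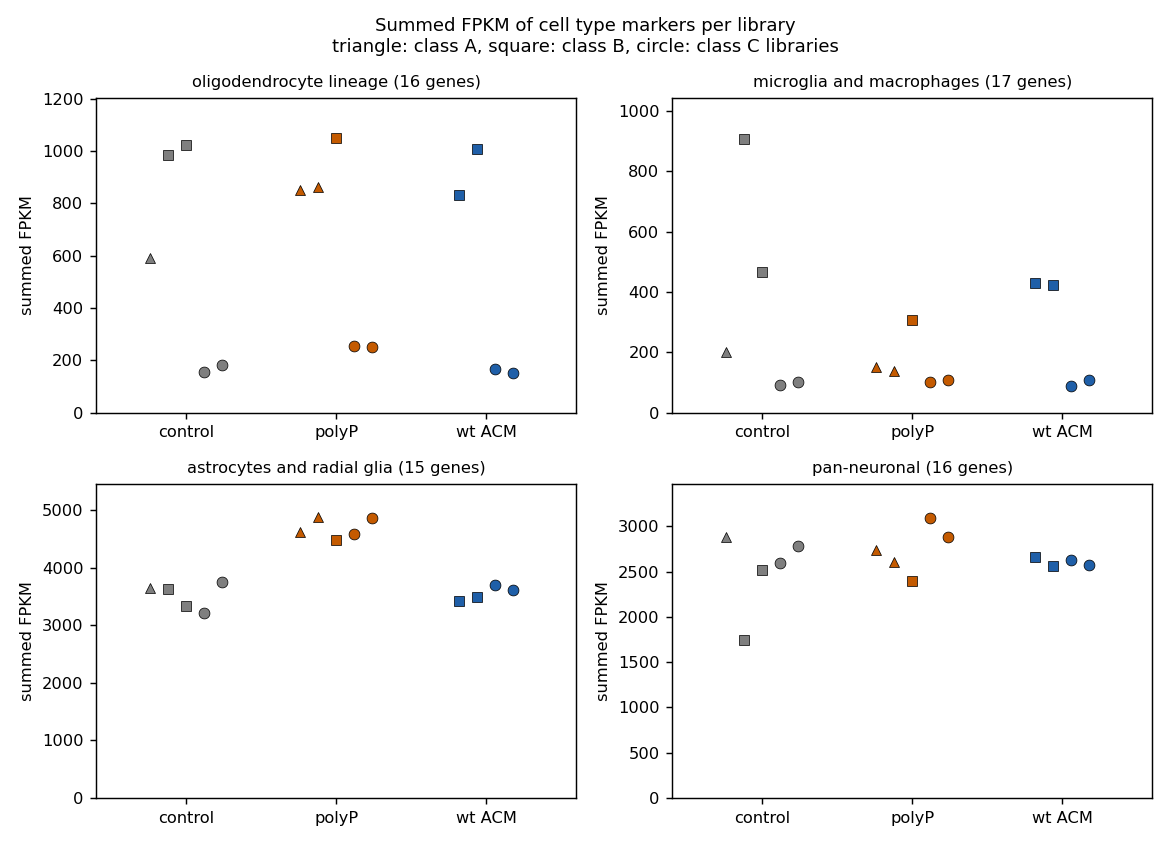
Summed FPKM of the markers of 4 cell types in each control, polyP and wtSOD1-ACM library, with the class of the library by symbol. Oligodendrocyte and microglial sums follow the class. The sum for astrocytes and radial glia runs from 4487 to 4880 FPKM in polyP and from 3419 to 3705 in wtSOD1-ACM. That gap lies in Fabp7, without which the sums overlap, although other single markers such as Sox2 were also higher with polyP.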

How the data were processed

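The deposited table holds 1 FPKM value per gene for each of 19 libraries. Per the labels' protocols, libraries were poly(A)-enriched, and the design text calls the reads strand-specific. Reads were aligned with HISAT to rn6, per the submitters' processing notes. Which program and annotation gave the FPKM, and whether the authors scaled them further, is not given in the sources used here. All 19 columns were matched to samples by name.

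Differences were tested in R 4.3.3 with limma 3.58.1 (trend and robust, statmod 1.5.0) on log2(FPKM + 1), with all 4 groups in 1 fit, Benjamini-Hochberg adjustment over 11887 genes and a threshold of 0.05. The script was tested on simulated data. Lists have no test: their counts and medians are given. Genes were named by a fixed rule: of called genes whose libraries do not overlap and whose symbol is not only an identifier, the 15 largest differences each way, the 8 largest each way at a mean of 50 FPKM or more, up to 4 called members of each list by p, and 11 genes whatever their result. List members that did not pass are named as examples chosen after their values were seen, and some genes that the rule picks are not reported here. Members and lists were chosen with earlier results of these data known. Relative depth came from 105 low genes, whose 424 values were whole fragments within 0.1 in 97.9% of cases. Alternatives were other scalings, pseudocounts, filters, sets, classes, a replicate block and leaving out each library.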

Additional observations from a re-analysis of the deposited data

Results flagged for a closer look

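Of 340 groups of values checked, 13 held a library whose gap to its nearest neighbour passed Dixon's 95% limit. Chance flags about 1 group in 20. In polyP 3, the 1 class B library of its group, Olr1 (2.41 FPKM, others 0.50 to 0.88) and Flnc (94.7, others 45.9 to 53.5) were high. In the same library Atp5f1 (185, others 199 to 203), Hnrnpa1 (645, others 693 to 702), Farsb (35.2, others 37.7 to 38.4), Ppa1 (56.4, others 66.6 to 68.2) and H2afx (109.6, others 131 to 138) were low. In wtSOD1-ACM 3, Pgf (12.6 FPKM, others 14.2 to 14.4) and Atp2b1 (73.3, others 76.4 to 76.9) were low and Rpl22 (227, others 205 to 209) and Dut (61.8, others 56.4 to 57.3) were high. Slc17a6 was low in polyP 5 (17 FPKM, others 21.9 to 23.4), and Mir760 was high in polyP 2 (7.95 FPKM, others 2.27 to 3.85). In each case the flagged library stayed on its own group's side of the other group's range.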

How the results depend on the processing

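Pseudocounts of 0.1 and 5, other low-value filters, a fit of the 2 groups alone and limma without trend and robust moved neither count of calls by over 1.5 times. Genes called higher numbered 1546 after median-of-ratios scaling and 1376 after equal summed FPKM, and those called lower 2030 with library set as a term. Within set 1 the counts were 927 and 394, within set 2 2208 were lower, and with library class as a term, chosen after seeing the data, they were 3811 and 1922. Without polyP 1 and 2, also chosen after seeing the data, 601 were lower. Leaving out each library gave 1888 to 2715 higher and 701 to 1078 lower. The cause of these shifts was not tested. Of the 3488 calls, 2535 were still called after median-of-ratios scaling, 2363 after equal summed FPKM, 3460 with class as a term and 1150 within set 1. Losses within set 1 are not given for every named gene.

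With the replicate number as a block, 3381 genes were higher and 2288 lower. Deviations of same-numbered libraries correlated at 0.464, 0.424, -0.528 and 0.589 for numbers 1 to 4, so the numbers do not pair the libraries.

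The ratio of summed FPKM was 1.06 within set 1 and 1.10 within set 2, where so few libraries cannot pass the threshold. No gene was called in limma for a difference that depended on set (757 at an unadjusted p under 0.05), and 3 were with a pseudocount of 5. With so few libraries in each set, this test can miss such genes. Il1b was at -3.20 within set 1 and -0.97 within set 2 (limma, unadjusted p 4.1e-04, adjusted p 0.426), and Thbs1 at -1.14 and -2.14.

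Over the named genes, 5558 values kept direction and call, 135 lost the call, 8 gained it, and 27 changed sign, all in uncalled genes. Bdnf became -0.029 (median-of-ratios), -0.054 (equal sum), -0.047 (class term) and -0.050 (without polyP 1 and 2), and Npas4 -0.0084, -0.035, -0.079 (set term), -0.38 (set 1) and -0.30 (without polyP 1 and 2). Xpr1 became -0.030 without polyP 1 and 2, and Mbp -0.027 (set term), -0.34 (set 1) and -0.65 (without polyP 1 and 2). Leaving out each library, Fos ranged from -0.26 to 0.067, Bdnf from -0.029 to 0.10, Npas4 from -0.28 to 0.44 and Mbp from -0.45 to 1.38.

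Absolute depth is unknown, so genes near 1 FPKM carry counting error that could not be given.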
